A study of Rattus norvegicus with 24 samples.

Results

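The cardiac natriuretic peptide system was followed through 7 genes, found by their symbols among the 21767 gene symbols of a gene-level count table. They were the peptide genes Nppa and Nppb, the receptor genes Npr1, Npr2 and Npr3, and the protease genes Corin and Furin. All 7 were in the table, and all 7 passed the filter on low counts.

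The cells were neonatal rat ventricular myocytes, beating heart muscle cells isolated from newborn Sprague-Dawley rats and kept in primary culture. They were transfected with synthetic microRNA mimics at 5 nM each, and exposure to doxorubicin or vehicle began 48 h later and lasted 24 h. Doxorubicin is an anthracycline cancer drug that intercalates into DNA, poisons topoisomerase II and is toxic to the heart. Its dose is 4 uM in the sample notes but 4 mM in the text on the series as a whole, and which is right is not settled here. The 8 groups of 3 libraries each were doxorubicin with a miR-222-3p mimic, doxorubicin with a miR-455-3p mimic, doxorubicin with both mimics, doxorubicin with a negative control mimic, and the same 4 transfections without doxorubicin. Every group, the controls included, had been through lipid transfection. The labels do not say whether the 3 libraries of a group came from separate cell isolations, so p-values measure the spread between these libraries, which may be technical.

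Atrial natriuretic peptide, encoded by Nppa, and B-type natriuretic peptide, encoded by Nppb, are hormones that heart muscle cells secrete when they are stretched or stressed. Both are made as longer precursors. Corin is the membrane protease that cuts pro-atrial natriuretic peptide, and furin is a Golgi protease that can cut the B-type precursor along with many other proteins. Both peptides act on the receptor guanylyl cyclase encoded by Npr1, which makes cyclic GMP and so lowers blood pressure and restrains growth of heart muscle. Npr2 encodes the related receptor for C-type natriuretic peptide, and Npr3 a receptor that takes the peptides up for degradation. In the ventricle both peptide genes are active before birth, become quiet afterwards and return in strained or failing hearts, which is why they serve as markers of cardiac stress.

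The mature sequences of the 2 microRNAs are shown because the peptide genes moved in opposite directions with them on average. They are the rat sequences of RefSeq on build GRCr8, written 5′ to 3′ with the seed, bases 2 to 8, in capitals. No source used here gives the sequences of the mimics themselves.
rno-miR-222-3p, chrX:6022682-6022702, plus strand: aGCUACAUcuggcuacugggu
rno-miR-455-3p, chr5:81704881-81704902, plus strand: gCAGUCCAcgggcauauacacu
The seeds differ, so the 2 microRNAs belong to different seed families.

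Nppb and Nppa are neighbours on chromosome 5, with 10869 bases between the end of Nppb and the start of Nppa in the same RefSeq annotation. Their upstream sequences are shown because the results turn on these 2 genes, which on average both fell with miR-222. Capitals mark matches, on either strand, to the GATA letters TGATAA or AGATAA, the M-CAT letters GGAATG and the TATA letters TATAAA. The stretch of Nppb ends at the outermost annotated start of the gene.
Nppa, chr5:163711934-163712183, plus strand, GRCr8: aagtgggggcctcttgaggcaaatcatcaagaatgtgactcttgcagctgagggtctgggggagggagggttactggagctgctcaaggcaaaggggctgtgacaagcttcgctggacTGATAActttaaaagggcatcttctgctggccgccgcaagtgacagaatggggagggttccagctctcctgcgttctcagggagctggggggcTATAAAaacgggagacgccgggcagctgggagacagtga
Nppb, chr5:163699758-163699954, plus strand, GRCr8: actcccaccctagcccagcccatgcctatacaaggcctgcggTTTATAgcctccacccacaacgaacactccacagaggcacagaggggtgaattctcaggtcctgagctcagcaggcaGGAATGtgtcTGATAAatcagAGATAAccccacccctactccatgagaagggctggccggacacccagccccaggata
Nppa held 1 GATA match and 1 TATA match. Nppb held 2 GATA matches beside 1 M-CAT match, and 1 TATA match on the minus strand. Among 33469 rat promoters of 250 bases, 16.9% held a GATA match, 12.1% an M-CAT match and 12.9% a TATA match. These matches describe letters only. Of the 7 genes, 5 had an entry in the promoter table and Npr2 and Furin had none.

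The 24 libraries held 17311949 to 25750309 counts and 11469 to 13524 genes with at least 10 counts. Mitochondrially encoded genes took 5.54% to 38.2% of the counts. Heart muscle markers were present in every library, with 9 of 10 listed genes in the table. Their summed level was 14820 to 39940 CPM (counts scaled to library size with TMM factors). Fibroblast markers were present too, at 14870 to 52930 CPM, so the markers do not show how pure the heart muscle cultures were. Without doxorubicin the libraries of 1 group did not always resemble each other. A list of hypoxia-induced genes averaged 7.60 or more on the log2 CPM scale in 7 of the 12 libraries and 6.16 or less in the other 5. The 7 were replicates 1 and 2 of the miR-222 group, 1 and 3 of the miR-455 group, 1 and 2 of the group with both mimics, and 3 of the control group. The 2 such libraries of each mimic group were also far more alike (chi-square per degree of freedom of 5.79 to 7.8) than either was to the other library of its group (126 to 575), yet differed by more than counting error, so all were kept. With doxorubicin, all 3 miR-455 libraries were about as alike (7.81 to 9.79). The closest pairs counted as 1 library below are those of the untreated mimic groups only, so that check did not cover the treated miR-455 libraries. The 4 libraries with the fewest genes were treated control replicate 1, treated replicate 2 with both mimics, untreated control replicate 1 and untreated replicate 3 with both mimics.

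Nppa ranked 3 among all genes by mean count, before any correction for length. It took 0.12% to 3.38% of a library's counts, and its level spanned a 36.3-fold range over the 24 libraries. In doxorubicin-treated cells Nppa was at 8817, 13600 and 13080 CPM with miR-222. With miR-455 it was at 37400, 40700 and 38840 CPM. With both mimics it was at 12770, 6142 and 9464 CPM. With the control mimic it was at 19770, 24760 and 31700 CPM. Among treated cells the miR-455 libraries thus stood above all others, and the libraries with miR-222, alone or combined, stood below all control libraries.

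Without doxorubicin Nppa was at 3750, 3890 and 1508 CPM with miR-222. With miR-455 it was at 22730, 8554 and 23990 CPM. With both mimics it was at 4409, 5343 and 1120 CPM, and with the control mimic at 2363, 2744 and 3363 CPM. All 3 miR-455 libraries lay above every other untreated library. In each mimic group the low library was the one with low hypoxia-induced genes. By group mean the order ran from doxorubicin with miR-455 through doxorubicin with the control mimic, miR-455 alone, doxorubicin with miR-222, doxorubicin with both mimics, both mimics alone and miR-222 alone to the untreated control. Neighbours in this order overlapped except at 2 places. Doxorubicin with miR-455 lay above doxorubicin with the control mimic, and doxorubicin with both mimics lay above both mimics alone.

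Nppb spanned a 10.9-fold range. In doxorubicin-treated cells it was at 351, 464.6 and 246.1 CPM with miR-222. With miR-455 it was at 2126, 2138 and 1732 CPM. With both mimics it was at 642.4, 609.5 and 505.4 CPM. With the control mimic it was at 561.4, 1045 and 612.8 CPM. The miR-455 libraries were again the highest and the miR-222 libraries the lowest, while those with both mimics overlapped the control libraries.

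Without doxorubicin Nppb was at 259.5, 258.3 and 205 CPM with miR-222. With miR-455 it was at 948.6, 1403 and 1402 CPM. With both mimics it was at 217.3, 227.5 and 196 CPM, and with the control mimic at 339.5, 490.3 and 1324 CPM. Every library with miR-222, alone or combined, lay below every control library. The control group was split, since replicate 3 reached the miR-455 level and was also its only library with high hypoxia-induced genes. In the miR-455 group, however, replicate 2, the library with low hypoxia-induced genes, held 1403 CPM. In the order of group means, neighbours were separate only where doxorubicin with miR-455 lay above miR-455 alone and where doxorubicin with both mimics lay above doxorubicin with miR-222.

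**Figure D1:**
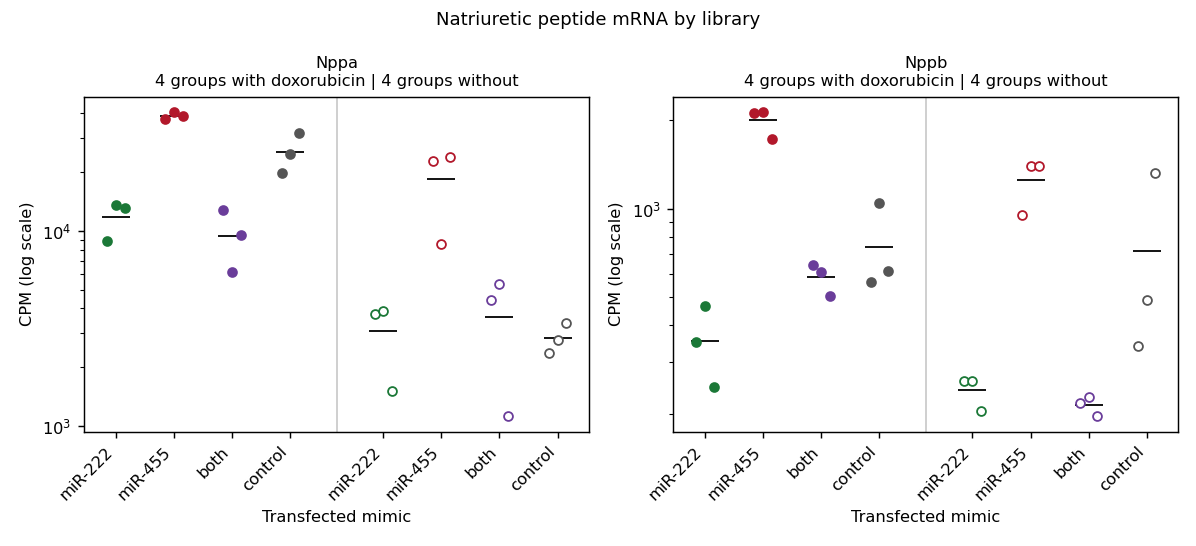
CPM of Nppa and Nppb (log axes) in each of the 24 libraries by transfected mimic, with doxorubicin on the left (filled points) and without on the right (open points); bars are group means of 3 libraries. The miR-455 libraries reach 40700 CPM for Nppa and 2138 CPM for Nppb under doxorubicin, while the libraries that received miR-222 lie low for both genes.

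The first comparison asked what doxorubicin did to the system under each transfection. Nppa rose 9.0-fold with the control mimic, at a log2 fold change of 3.17 ± 0.51 (SE, n = 3 libraries against 3, adjusted p = 0.000133, edgeR quasi-likelihood test with Benjamini-Hochberg adjustment over 14303 genes). It rose 3.88-fold with miR-222, at 1.96 ± 0.49 (adjusted p = 0.00982). With miR-455, where Nppa was already high, the log2 fold change was 1.08 ± 0.48 (adjusted p = 0.128), and with both mimics it was 1.38 ± 0.48 (adjusted p = 0.0568), so neither passed at 0.05. The treated and untreated Nppa libraries were separate in all 4 transfections. Of all genes, 49.3% were separate with miR-222, 53.8% with miR-455, 24.6% with both mimics and 33.5% with the control mimic. The miR-222 call was lost without replicate 3 of the untreated miR-222 group, at 1.62 (adjusted p = 0.0528).

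Nppb behaved otherwise under the drug. With the control mimic its log2 fold change was 0.04 ± 0.36 (adjusted p = 0.949), and its sign was not stable, at -0.37 without untreated control replicate 1 and 0.78 without replicate 3. It was 0.55 ± 0.37 with miR-222 (adjusted p = 0.364) and 0.68 ± 0.37 with miR-455 (adjusted p = 0.226). With both mimics Nppb passed, rising 2.74-fold at 1.46 ± 0.37 (adjusted p = 0.0115). That call was lost with the closest pairs counted as 1 library (1.49, adjusted p = 0.0628) and with only the groups compared (1.46, adjusted p = 0.0722).

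The receptor gene Npr1 rose with doxorubicin in every transfection. Treated cells had 12.28, 14.2 and 15.52 CPM with miR-222, 14.12, 10.67 and 14.14 CPM with miR-455, 14.02, 7.34 and 11.31 CPM with both mimics, and 9.893, 11.34 and 12.19 CPM with the control mimic. Untreated cells had 3.954, 4.203 and 7.226 CPM with miR-222, 6.059, 4.771 and 4.87 CPM with miR-455, 5.082, 5.318 and 4.213 CPM with both mimics, and 3.918, 4.284 and 7.055 CPM with the control mimic. Every treated library lay above every untreated library of the study, and the share of all genes that did so is not given here. The log2 fold changes were 1.45 ± 0.31 with miR-222 (adjusted p = 0.00326), 1.31 ± 0.31 with miR-455 (adjusted p = 0.00585), 1.16 ± 0.31 with both mimics (adjusted p = 0.0145) and 1.13 ± 0.31 with the control mimic (adjusted p = 0.0099). With the control mimic the call was lost without untreated control replicate 1 (0.90, adjusted p = 0.0697) or 2 (0.96, adjusted p = 0.0618), and with both mimics without treated replicate 1 (0.93, adjusted p = 0.068).

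The pro-peptide protease Corin had 26.04, 14.02 and 22.02 CPM in treated cells with the control mimic, against 1.959, 4.165 and 9.109 CPM in untreated ones. It rose 4.07-fold there, at 2.03 ± 0.57 (adjusted p = 0.0122), and the groups did not overlap. The call was lost without untreated control replicate 1 (1.56, adjusted p = 0.0748) or 2 (1.83, adjusted p = 0.0615). With the mimics its log2 fold changes for doxorubicin were 0.26 ± 0.55 for miR-222, 0.33 ± 0.55 for miR-455 and 0.54 ± 0.55 for both, with adjusted p from 0.563 to 0.829.

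Npr2, the C-type peptide receptor gene, had 17.87, 42.88 and 41.98 CPM in treated cells with the control mimic, against 15.67, 16.86 and 23.67 CPM in untreated ones. Treated replicate 1, the library with the fewest genes and the highest mitochondrial share of the study, overlapped the untreated libraries. The log2 fold change was 0.87 ± 0.28 (adjusted p = 0.0257), a call lost without treated replicate 2 (0.68, adjusted p = 0.125) or 3 (0.70, adjusted p = 0.115) or untreated replicate 1 (0.69, adjusted p = 0.143) or 2 (0.74, adjusted p = 0.119). With the mimics it ran from 0.30 to 0.64 and did not pass, with adjusted p from 0.14 to 0.517. Furin and Npr3 passed in none of the 4 doxorubicin comparisons. Their log2 fold changes with the control mimic were -0.01 ± 0.42 (adjusted p = 0.992) and 0.10 ± 0.79 (adjusted p = 0.949).

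By count, doxorubicin raised 4 of the 7 genes with the control mimic, where 27.5% of all genes tested passed in either direction. It raised 2 with miR-222 (14.6% of all genes), 1 with miR-455 (18.1%) and 2 with both mimics (15.1%). None of the 7 was lower. The median log2 fold change of the 7 genes was 0.56 with miR-222, 0.68 with miR-455, 0.57 with both mimics and 0.87 with the control mimic, against medians over all genes of 0.00, 0.00, -0.07 and 0.02.

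Whether the drug effect itself differed between transfections was tested as an interaction, and no member passed. For Nppa the drug effect with miR-222 minus that with the control mimic was -1.21 ± 0.67 (adjusted p = 0.6). With miR-455 it was -2.09 ± 0.67 (adjusted p = 0.32) and with both mimics -1.79 ± 0.67 (adjusted p = 0.244). For Nppb with both mimics it was 1.41 ± 0.52 (adjusted p = 0.233). Over all genes these 3 interactions passed for 0.0489%, 0% and 0.0559% in edgeR. These counts were not stable: for both mimics the 8 calls became 894 without untreated replicate 3 with both mimics, where Nppa passed (-2.14, adjusted p = 0.04), and 1589 once the 4 libraries poorest in detected genes were set aside. For miR-222 the 7 calls became 205 by DESeq2. For miR-455 the 0 calls stood beside 1523 genes at an unadjusted p under 0.05 and 135 calls by DESeq2.

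**Figure D2:**
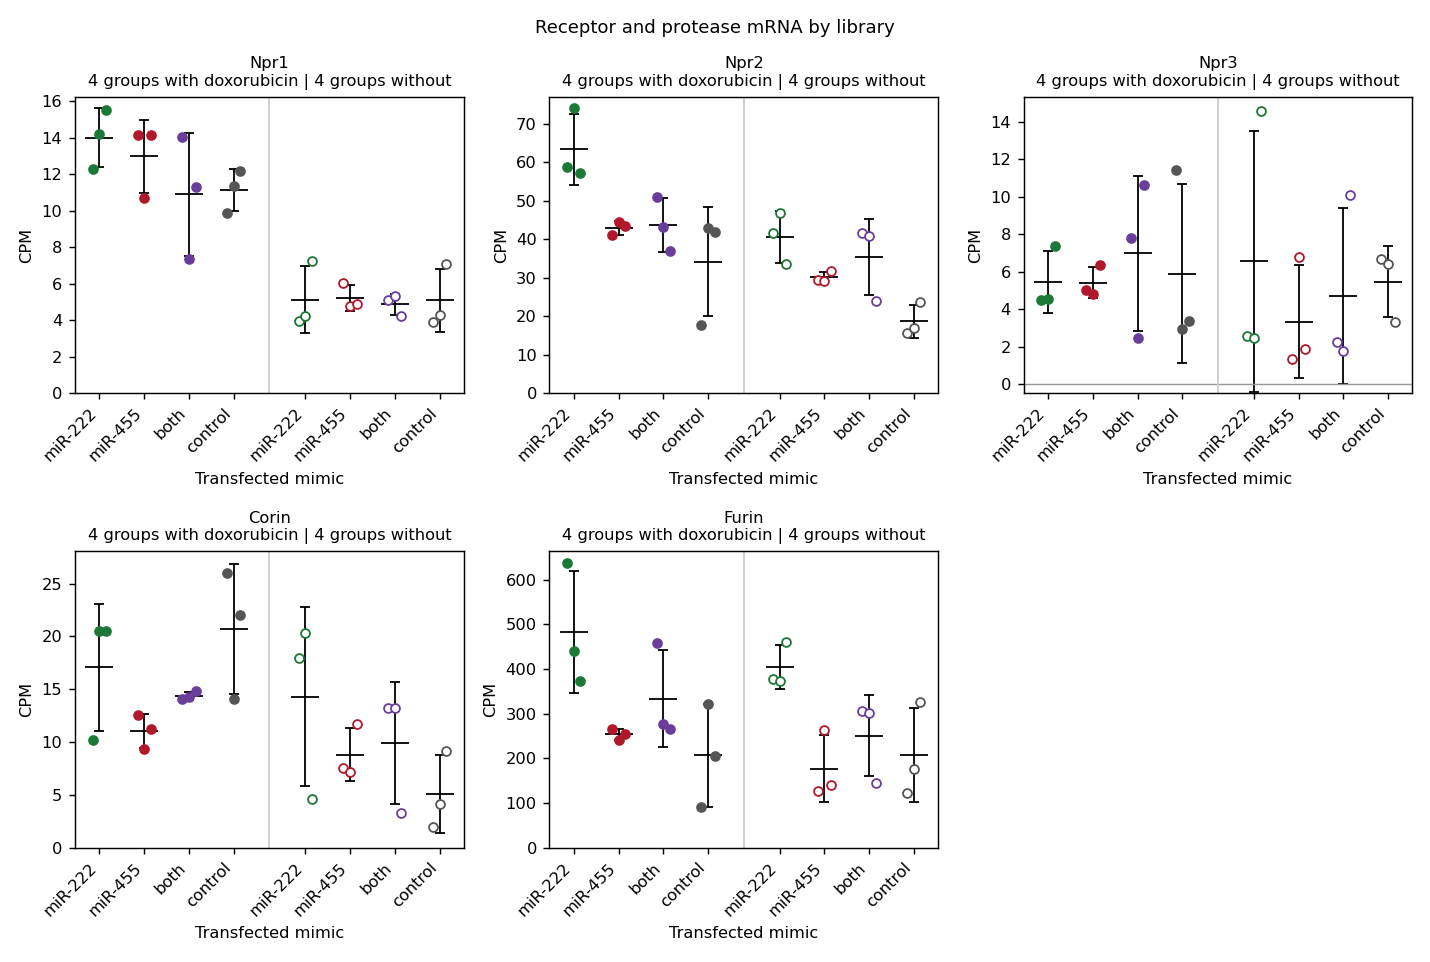
CPM of Npr1, Npr2, Npr3, Corin and Furin in each library, with doxorubicin left of the line (filled points) and without right of it (open points); bars are the mean ± SD of 3 libraries. All 12 treated libraries lie above all 12 untreated ones for Npr1, and Npr3 and Corin spread widely within the untreated groups.

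The second comparison asked what each mimic did. On average both peptide genes were lower with miR-222 and higher with miR-455, but the single backgrounds differed. For miR-222 the log2 fold changes ran from -2.35 to 0.11 for Nppa and from -2.55 to -1.06 for Nppb. For miR-455 they ran from -0.32 to 2.71 and from -0.17 to 1.43. Averaged over its 4 backgrounds (added to the control mimic or to miR-455, with and without doxorubicin), miR-222 lowered Nppa 2.54-fold, at -1.35 ± 0.24 (SE, adjusted p = 0.000532). It lowered Nppb 3.34-fold, at -1.74 ± 0.19 (adjusted p = 2.29e-06). Averaged in the same way, miR-455 raised Nppa 1.76-fold, at 0.81 ± 0.24 (adjusted p = 0.0499), and Nppb 1.62-fold, at 0.70 ± 0.18 (adjusted p = 0.0286). These averages covered 12 libraries with the mimic against 12 without it, and the 2 mimics share the libraries with both mimics and with the control.

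The 2 calls for miR-222 held without any single library, with Nppa from -1.43 to -1.23 and Nppb from -1.81 to -1.53. The 2 calls for miR-455 were close to the threshold. That for Nppa was lost when any of 21 of the 24 libraries was left out and that for Nppb when any of 12 was, with values of 0.71 to 0.91 and 0.60 to 0.89.

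The difference between the mimics was tested as miR-222 minus miR-455. This is the same as setting the miR-222 groups against the miR-455 groups directly over both drug conditions. It tests a difference and not opposite directions, since a fall with miR-222 alone would also give it. Nppa was 4.46-fold lower with miR-222, at -2.16 ± 0.35 (adjusted p = 0.000346), and Nppb 5.42-fold lower, at -2.44 ± 0.27 (adjusted p = 7.01e-06). Both calls held without any single library, from -2.31 to -1.97 for Nppa and from -2.56 to -2.33 for Nppb. With doxorubicin alone Nppb differed by -2.50 ± 0.39 (adjusted p = 0.000528) and Nppa by -1.72 ± 0.48, which narrowly missed the threshold (adjusted p = 0.0534). Without doxorubicin Nppa differed by -2.60 ± 0.50 (adjusted p = 0.00706) and Nppb by -2.38 ± 0.38 (adjusted p = 0.00178), and both untreated calls were lost with the closest pairs counted as 1 library (adjusted p = 0.148 and 0.0764). In all 4 cases every miR-222 library lay below every miR-455 library, a separation in either direction that 42.6% of all genes had with the drug and 27.2% without.

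Both peptide genes were lower when miR-222 was added to miR-455. The cells with both mimics may also have had more mimic in total, which this comparison cannot tell apart from miR-222 itself. With doxorubicin, the log2 fold change of cells with both mimics against cells with miR-455 alone was -2.04 ± 0.49 for Nppa (adjusted p = 0.0281) and -1.77 ± 0.38 for Nppb (adjusted p = 0.014). Without the drug the values were -2.35 ± 0.49 for Nppa (adjusted p = 0.0263) and -2.55 ± 0.39 for Nppb (adjusted p = 0.0028). Without the drug 2 of the 7 members passed against 0.748% of all genes, and with it 2 did against 2.48%. The members were chosen with earlier results of these data known, so these counts describe the set and do not test it. The untreated Nppb call held without any single library, but like that of Nppa it was lost when the closest pairs were counted as 1 library (Nppb -2.62, adjusted p = 0.108, and Nppa -2.42, adjusted p = 0.347) and when only the groups compared were fitted (Nppb -2.55, adjusted p = 0.144, and Nppa -2.35, adjusted p = 0.421). The other 3 were each lost without 1 of 4 or 5 libraries, all in the groups compared, with values of -2.07 to -1.81 for treated Nppa, -2.52 to -1.93 for untreated Nppa and -1.80 to -1.68 for treated Nppb.

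Adding miR-455 to miR-222 moved neither gene past the threshold. With doxorubicin the log2 fold change was -0.32 ± 0.47 for Nppa (adjusted p = 0.766) and 0.73 ± 0.37 for Nppb (adjusted p = 0.48), although the Nppb libraries of the 2 groups did not overlap. Without the drug it was 0.25 ± 0.47 for Nppa and -0.17 ± 0.36 for Nppb, each with an adjusted p of 1. The edgeR test passed 0.161% of all genes with the drug and 0% without it, where 564 genes had an unadjusted p under 0.05 and DESeq2 called 24. The effect of both mimics beyond the sum of each alone was -0.94 ± 0.67 for Nppa with doxorubicin (adjusted p = 0.559) and -2.46 ± 0.68 without (adjusted p = 0.21), and DESeq2 called the second value (adjusted p = 0.0245). For Nppb it was -0.71 ± 0.52 with the drug (adjusted p = 0.565) and -0.98 ± 0.52 without (adjusted p = 0.306). Of all genes, 0.0419% passed this test with the drug and 0.014% without.

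Set against the control mimic one group at a time, fewer values passed. Under doxorubicin miR-222 gave -1.10 ± 0.48 for Nppa (adjusted p = 0.245) and -1.06 ± 0.37 for Nppb (adjusted p = 0.127), and 0 of the 7 genes passed against 3.95% of all genes. In that comparison miR-455 raised Nppb 2.70-fold, at 1.43 ± 0.37 (adjusted p = 0.042), a call lost without any of 15 libraries at values of 1.27 to 1.53, and gave 0.62 ± 0.47 for Nppa (adjusted p = 0.725). That was 1 of the 7 genes against 2.5% of all genes. Both mimics gave -1.43 ± 0.48 for Nppa (adjusted p = 0.0882) and -0.34 ± 0.37 for Nppb (adjusted p = 0.67), with 0 of the 7 genes passing against 5.55% of all genes.

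Without doxorubicin miR-222 lowered Nppb 2.98-fold, at -1.57 ± 0.37 (adjusted p = 0.0137), and left Nppa at 0.11 ± 0.47 (adjusted p = 0.902). In untreated cells miR-455 raised Nppa 6.53-fold, at 2.71 ± 0.50 (adjusted p = 0.00842), and gave 0.80 ± 0.37 for Nppb (adjusted p = 0.176). Both mimics lowered Nppb 3.36-fold, at -1.75 ± 0.38 (adjusted p = 0.00894), and gave 0.36 ± 0.47 for Nppa (adjusted p = 0.699). Of the 7 genes, miR-222 raised 1 and lowered 1 (8.97% of all genes passed), miR-455 raised 1 (4.72%) and both mimics lowered 1 (7.06%).

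The untreated Nppb values leaned on control replicate 3. Without it they were -0.81 for miR-222, -0.98 for both mimics (adjusted p = 0.0534) and 1.57 for miR-455, where the gene then passed (adjusted p = 0.0165). The miR-222 call was also lost without miR-222 replicate 1 or 2, at -1.67 each, and the miR-455 call for Nppa without miR-455 replicate 1 (2.50, adjusted p = 0.0575) or 3 (2.47, adjusted p = 0.0552) or control replicate 1 (2.56, adjusted p = 0.0512). With the mean of the hypoxia-induced genes as a term of the fit, chosen after the data were seen, Nppa with miR-455 was 1.82 (adjusted p = 0.0254) and Nppb with miR-222 -1.70 (adjusted p = 0.00619), while Nppa with miR-222 turned to -0.60 (adjusted p = 0.376) and with both mimics to -0.47 (adjusted p = 0.599).

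**Figure D3:**
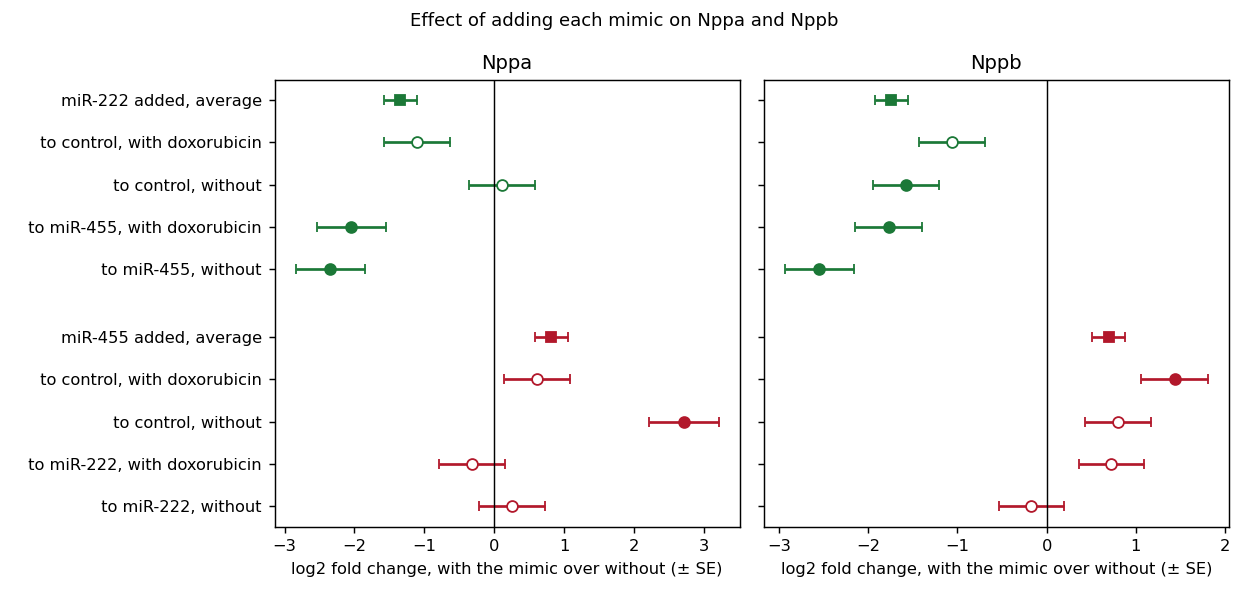
Log2 fold change (± SE) of Nppa and Nppb when miR-222 (green) or miR-455 (red) was added, in each of 4 backgrounds (circles) and on average (squares); filled symbols passed an adjusted p of 0.05. The averages are -1.35 and -1.74 for miR-222 and 0.81 and 0.70 for miR-455, and adding miR-455 to miR-222 gave values near 0 for Nppa.

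Heart muscle content ran partly beside these values. The summed cardiomyocyte markers were 17650 to 26380 CPM with miR-222, 29190 to 29750 CPM with miR-455, 18390 to 39940 CPM with both mimics and 24170 to 27240 CPM with the control mimic in treated cells. In untreated cells they were 17740 to 20380, 23580 to 30190, 18850 to 20780 and 14820 to 19680 CPM in the same order of mimics. The higher untreated miR-455 range thus went with higher Nppa. Atrial markers, a possible other source of the peptides, summed to 765.4 to 910.7 CPM in treated control cells and 201.9 to 300.5 CPM in untreated control cells. Most of that difference was Dkk3, at 556.3 to 696.8 CPM in treated control cells and 93.9 to 177.8 CPM in untreated control cells, while the atrial potassium channel gene Kcna5 was at 0 in all 4 treated groups. The atrial sums of the other treated groups were 345.2 to 483.5 CPM with miR-222, 426 to 450.7 CPM with miR-455 and 242.7 to 401.8 CPM with both mimics. In untreated cells they were 309.9 to 333.3, 461.8 to 517.7 and 237.4 to 256.8 CPM in the same order, so the untreated miR-455 group was highest for this list as for Nppa. The atrial light chain gene Myl4 rose with untreated miR-455, at 3.17 ± 0.34 against the control mimic (adjusted p = 8.69e-05), and its difference between miR-222 and miR-455 was -1.12 ± 0.23 on average (adjusted p = 0.00291). Bmp10, an atrial growth factor gene, differed by -2.74 ± 0.65 between them (adjusted p = 0.0103), at a low level of 4.39 to 5.92 CPM in untreated miR-455 cells. Myl7 and Kcnj3 went the other way, at 1.17 ± 0.16 (adjusted p = 5.19e-05) and 1.23 ± 0.33 (adjusted p = 0.0229). Thus 2 of the 10 atrial markers were higher and 2 lower with miR-222 than with miR-455, where 8.29% of all genes passed. Of the 10 atrial markers miR-222 raised 2 and lowered 3 on average, and miR-455 raised 1 and lowered 1. By gene, miR-222 lowered 3 of 9 tested cardiomyocyte markers on average and raised 0, among them Myl2, the ventricular myosin light chain (-0.51 ± 0.11, adjusted p = 0.00248), and miR-455 raised 1, again Myl2 (0.65 ± 0.11, adjusted p = 0.000946). Of 9 fibroblast markers miR-222 raised 1 and lowered 4, and miR-455 lowered 2. Over all genes 15.4% passed for miR-222 and 5.3% for miR-455. The part of these marker lists in the peptide values was not tested. In bulk RNA of this kind fewer cells of a type and less RNA per cell cannot be told apart.

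Among the receptors and proteases the mimics moved Npr2 and Furin. Averaged over the 4 backgrounds, miR-222 raised Npr2 1.48-fold, at 0.57 ± 0.14 (adjusted p = 0.00801), and Furin 1.71-fold, at 0.77 ± 0.21 (adjusted p = 0.0154). Both calls held without any single library, from 0.49 to 0.63 and from 0.68 to 0.90, and were lost with the closest pairs counted as 1 library (0.54, adjusted p = 0.0527, and 0.72, adjusted p = 0.0741). Counting the peptides, miR-222 raised 2 and lowered 2 of the 7 genes on average, where 15.4% of all genes passed. For miR-455 the averages were 0.07 ± 0.14 for Npr2 (adjusted p = 0.888) and -0.29 ± 0.21 for Furin (adjusted p = 0.543), so 2 of the 7 genes passed, both peptides, where 5.3% of all genes did. Directly, Furin was 2.08-fold higher with miR-222 than with miR-455, at 1.06 ± 0.30 (adjusted p = 0.0295), a call lost without any of 8 libraries at values of 0.93 to 1.09. With the peptides that was 1 of the 7 genes higher and 2 lower, where 8.29% of all genes passed. In the single conditions 2 of the 7 genes were lower with miR-222 than with miR-455 without doxorubicin (2.3% of all genes passed) and 1 was lower with it (3.57%).

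Npr2 was at 58.83, 74.14 and 57.31 CPM in treated miR-222 cells, above every library of the other treated groups, which lay between 17.87 and 51.08 CPM. In untreated miR-222 cells it was at 41.63, 46.94 and 33.52 CPM, against 15.67, 16.86 and 23.67 CPM in untreated control cells. There miR-222 raised Npr2 2.17-fold, at 1.12 ± 0.28 (adjusted p = 0.0183), a call lost without miR-222 replicate 1 (1.07, adjusted p = 0.0869) or 2 (0.97, adjusted p = 0.112) or control replicate 1 (0.97, adjusted p = 0.11) or 2 (1.02, adjusted p = 0.0836). Both mimics gave 0.92 ± 0.28 without the drug (adjusted p = 0.0521). In all 3 untreated mimic groups every library lay above every control library for this gene, a description, since the share of all genes that did so is not given here.

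Furin was at 637.3, 439.6 and 372.9 CPM with miR-222 in treated cells, 265.9, 241.9 and 254.1 CPM with miR-455, 458.3, 276.3 and 265.1 CPM with both mimics, and 91.46, 322.4 and 206.3 CPM with the control mimic. In untreated cells it was at 378.3, 373.8 and 461.1 CPM with miR-222, 127.4, 263.3 and 140.7 CPM with miR-455, 306.3, 301.8 and 145.3 CPM with both mimics, and 122.4, 175.9 and 325.7 CPM with the control mimic. In both drug conditions the miR-222 libraries lay above all miR-455 and all control libraries. Between miR-222 and miR-455, 42.6% of all genes were separate in either direction with the drug and 27.2% without. The share against the control is not given here. The single comparisons with the control mimic did not pass, at 1.23 ± 0.42 with doxorubicin (adjusted p = 0.125) and 0.96 ± 0.42 without (adjusted p = 0.146).

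Npr1 did not follow the mimics, with averages of 0.00 ± 0.15 for miR-222 (adjusted p = 1) and -0.04 ± 0.15 for miR-455 (adjusted p = 0.946). Corin averaged 0.44 ± 0.28 for miR-222 (adjusted p = 0.321) and -0.22 ± 0.28 for miR-455 (adjusted p = 0.783). The clearance receptor gene Npr3 averaged 0.26 ± 0.40 for miR-222 (adjusted p = 0.744) and -0.24 ± 0.40 for miR-455 (adjusted p = 0.856).

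In treated cells Corin was at 10.16, 20.5 and 20.5 CPM with miR-222, 12.58, 9.325 and 11.2 CPM with miR-455, and 14.11, 14.25 and 14.82 CPM with both mimics. Npr3 was at 4.489, 4.561 and 7.388 CPM, 5.031, 4.837 and 6.363 CPM, and 7.822, 2.488 and 10.66 CPM in the same groups, and at 11.41, 2.938 and 3.359 CPM with doxorubicin and the control mimic. The miR-455 libraries lay below all treated control libraries for Corin, without a share of all genes to set beside it. No treated group stood apart for Npr3.

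Npr3 and Corin spread widely within the untreated groups. Npr3 was at 2.599, 2.487 and 14.6 CPM with miR-222, 1.331, 6.811 and 1.887 CPM with miR-455, 2.25, 1.785 and 10.12 CPM with both mimics, and 6.687, 6.426 and 3.304 CPM with the control mimic. The 7 untreated libraries with high hypoxia-induced genes held 1.33 to 3.30 CPM of Npr3, and the 5 with low ones held 6.43 to 14.6 CPM, so the 2 sets did not overlap. Corin ran the other way, at 7.53 to 20.4 CPM in the first set and 1.96 to 7.16 CPM in the second. In untreated cells it was at 17.94, 20.35 and 4.575 CPM with miR-222, 7.527, 7.157 and 11.67 CPM with miR-455, and 13.23, 13.2 and 3.251 CPM with both mimics. Nppa was at 3363 to 23990 CPM in the first set and 1120 to 8554 CPM in the second, which overlap. Neither Nppb (217.3 to 1402 against 196 to 1403 CPM) nor Npr1 (3.95 to 7.06 against 3.92 to 7.23 CPM) separated them. These sets were drawn from the data, so their values are a description without a test, and what separates the libraries was not tested. The share of all genes that separate the 2 sets is not given here, so the separation is not shown to be particular to Npr3 or Corin.

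**Figure D4:**
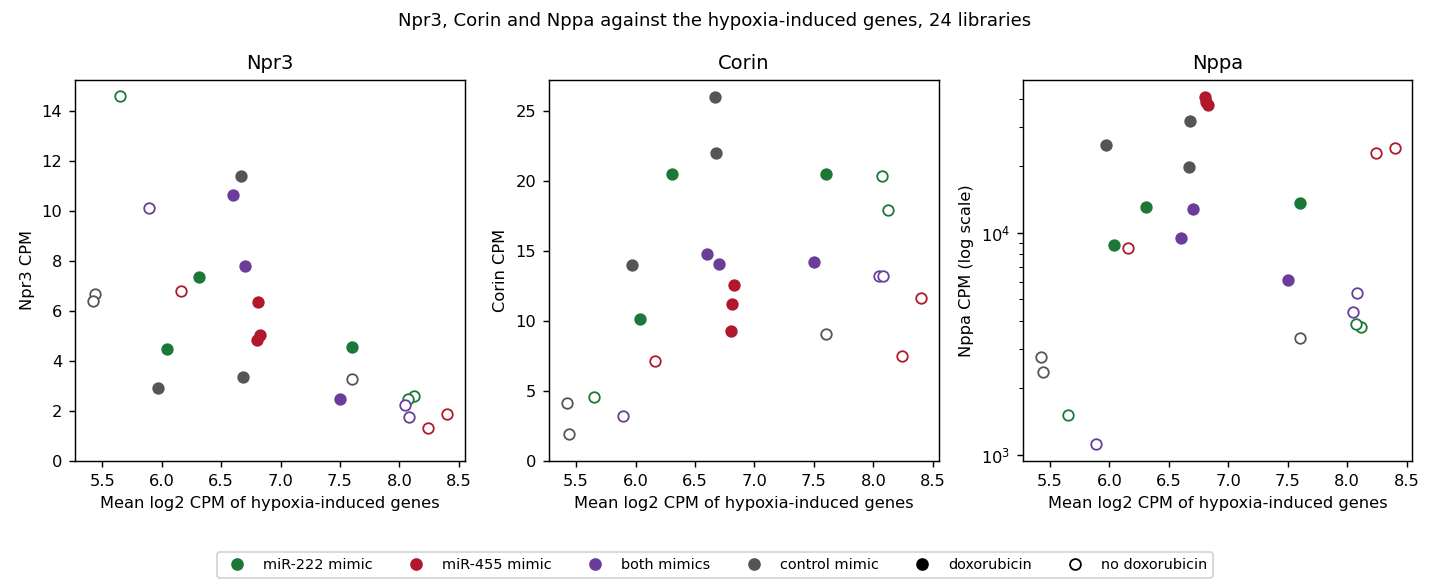
CPM of Npr3, Corin and Nppa (Nppa on a log axis) against the mean log2 CPM of 15 measured hypoxia-induced genes in the 24 libraries, coloured by mimic, filled with doxorubicin and open without. The 7 open points at 7.60 or above have Npr3 at or below 3.30 CPM, and the 5 at 6.16 or below have it at 6.43 CPM or more. How many other genes separate these points is not given.

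The balance of the 2 peptides within a library is free of scaling between libraries, so the log2 ratio of Nppa to Nppb counts was compared on its own. In treated cells it averaged 5.09 ± 0.57 with miR-222, 4.29 ± 0.18 with miR-455, 3.96 ± 0.54 with both mimics and 5.13 ± 0.56 with the control mimic (SD, n = 3 each). In untreated cells it averaged 3.55 ± 0.58, 3.76 ± 1.03, 3.804 ± 1.12 and 2.21 ± 0.77 in the same order. Doxorubicin shifted the ratio towards Nppa by 1.29 on average over the 4 transfections (two-sided exact permutation test within transfections, p = 0.003, 0.012 adjusted over 4 ratio tests). The shift was 1.54 with miR-222, 0.53 with miR-455, 0.15 with both mimics and 2.92 with the control mimic. The mean ratio differed by 0.25 for miR-222 (exact permutation p = 0.426) and -0.04 for miR-455 (exact permutation p = 0.914), and by 0.29 between miR-222 and miR-455 (exact permutation p = 0.48). These 3 p-values, 0.64, 0.914 and 0.64 after adjustment, do not show that the ratio stayed equal, and the means cover shifts in both directions. Adding miR-222 shifted the ratio by -0.05 on the control mimic and -0.33 on miR-455 with doxorubicin, and by 1.34 and 0.04 without. Adding miR-455 shifted it by -0.84 on the control mimic and -1.13 on miR-222 with doxorubicin, and by 1.55 and 0.26 without. In untreated cells both single mimics gave a higher mean ratio than the control, and under doxorubicin neither did.

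**Figure D5:**
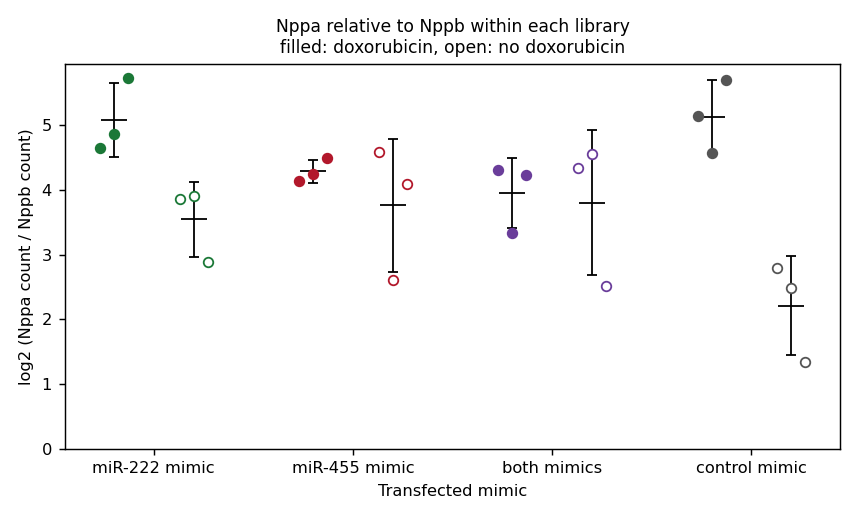
Log2 ratio of Nppa to Nppb counts in each library by mimic, doxorubicin (filled) left of no doxorubicin (open); bars are the mean ± SD of 3 libraries. The widest gap between treated and untreated cells is with the control mimic, 5.13 against 2.21, and the narrowest with both mimics, 3.96 against 3.804.

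Across the 24 libraries Nppa and Nppb correlated at a Pearson r of 0.71 on the log2 CPM scale, and Npr2 and Furin at 0.76. The libraries share groups and treatments, so these are descriptions. Among 10053 genes of at least 5 CPM on average, those most like Nppa were Gpx3 (r = 0.948), a secreted glutathione peroxidase, Myl9 (0.948), a myosin regulatory light chain, Ssr4 (0.947), part of the translocon-associated protein complex, Loxl2 (0.939), a collagen crosslinking enzyme, and Serf2 (0.936). Those most like Nppb were Lgals9 (0.894), which encodes galectin-9, Col8a1 (0.852), a collagen chain, Dbh (0.840), dopamine beta-hydroxylase, Emp1 (0.831), a membrane protein, and Nid1 (0.820), the basement membrane protein nidogen. The 2 sets of 5 shared no gene. Both depended on the measure: over the 8 group means 2 of the 5 remained among the top 5 for each gene, and by Spearman correlation 3 of the 5 remained for Nppb.

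Further lists placed the 7 genes in their pathway. Transcription factors reported to act at natriuretic peptide promoters included genes that fell with doxorubicin. Of 20 tested, 7 were lower with miR-222, 6 with miR-455, 7 with both mimics and 8 with the control mimic, and none was higher. Of all genes 14.6%, 18.1%, 15.1% and 27.5% passed in either direction in these comparisons. Their median log2 fold change with the control mimic was -1.01, against 0.02 over all genes. Nkx2-5 (-4.56 ± 1.00, adjusted p = 0.00203), a homeobox factor of heart muscle, Myocd (-3.42 ± 0.50, adjusted p = 4.84e-05), a coactivator of serum response factor, and the T-box factors Tbx5 (-2.23 ± 0.45, adjusted p = 0.00106) and Tbx20 (-2.09 ± 0.29, adjusted p = 2.76e-05) fell there. On average over the backgrounds miR-222 lowered 1, Nfatc3 (-0.48 ± 0.13, adjusted p = 0.0157), a calcineurin-dependent factor, and miR-455 moved 0 in either direction. The shares of all genes that passed were 15.4% for miR-222 and 5.3% for miR-455.

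Next came upstream signals. Of 17 tested ligands and receptors that induce natriuretic peptides, miR-222 lowered 3 on average and raised 0, a share close to the 15.4% of all genes that passed. The list median was -0.15, against 0.02 over all genes. The 3 were Edn1 (-1.38 ± 0.19, adjusted p = 3e-05), which encodes endothelin-1, Ece1 (-0.83 ± 0.10, adjusted p = 1.22e-05), the enzyme that releases it from its precursor, and the growth factor gene Nrg1 (-0.90 ± 0.17, adjusted p = 0.00103). For miR-455 none of the 17 passed, where 5.3% of all genes did. Directly, miR-222 minus miR-455 was -1.42 ± 0.26 for Edn1 (adjusted p = 0.0013) and -0.88 ± 0.15 for Ece1 (adjusted p = 0.000458). With doxorubicin and the control mimic 3 of the 17 rose and 3 fell, where 27.5% of all genes passed in either direction. Among them were Ace (1.81 ± 0.28, adjusted p = 7.99e-05), the angiotensin-converting enzyme, Ece1 (1.16 ± 0.21, adjusted p = 0.000356), and the receptors Ednra (-3.30 ± 0.76, adjusted p = 0.00294) for endothelin and Adra1a (-3.55 ± 0.85, adjusted p = 0.00415) for noradrenaline.

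A further list covered genes for cyclic GMP synthesis, breakdown and action. Not all of them lie downstream of the peptides, since soluble guanylyl cyclase makes cyclic GMP in answer to nitric oxide. Of 17 tested, miR-222 raised 5 and lowered 1 on average, where 15.4% of all genes passed, with a list median of 0.31 against 0.02 over all genes. The 1 lowered was Pln, the gene of the calcium pump regulator phospholamban (-1.11 ± 0.31, adjusted p = 0.0173). Both subunits of the nitric oxide receptor, soluble guanylyl cyclase, rose, Gucy1b1 by 1.82 ± 0.22 (adjusted p = 1.21e-05) and Gucy1a1 by 1.80 ± 0.31 (adjusted p = 0.000383). Rgs4, an inhibitor of G protein signalling, rose by 1.53 ± 0.28 (adjusted p = 0.000638), and the phosphodiesterase gene Pde3b by 0.85 ± 0.15 (adjusted p = 0.000591). With miR-455, 1 of the 17 passed, a share close to the 5.3% of all genes that did. It was Gucy1b1, at -1.34 ± 0.22 (adjusted p = 0.000889). Between the mimics Gucy1b1 was higher with miR-222 by 3.16 ± 0.33 (adjusted p = 3.75e-06).

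Nppa and Nppb belong to the fetal gene programme. The 13 other genes listed with it were a wider set than fetal isoforms and held genes such as Ccn1, Ccn2, Rcan1 and Xirp1. The counts therefore do not describe the fetal programme alone. Of the 13, 6 were lower and 0 higher with miR-222 on average, where 15.4% of all genes passed. Their median was -0.58 against 0.02 over all genes. The lower genes included Myh7 (-2.25 ± 0.27, adjusted p = 7.29e-06), the slow myosin heavy chain, Fhl1 (-0.93 ± 0.16, adjusted p = 0.000353), a sarcomere-associated LIM protein, and Ccn1 (-1.15 ± 0.22, adjusted p = 0.00123), a matricellular protein. With miR-455 1 was higher, skeletal actin Acta1 (1.48 ± 0.34, adjusted p = 0.0131), where 5.3% of all genes passed. Under doxorubicin with the control mimic 1 of the 13 rose, slow skeletal troponin I gene Tnni1 (1.72 ± 0.30, adjusted p = 0.000272), and 5 fell. There 27.5% of all genes passed in either direction. Xirp1, an intercalated disc protein, changed by -7.01 ± 0.74 (adjusted p = 1.4e-06) and the calcineurin regulator Rcan1 by -4.10 ± 0.58 (adjusted p = 3.28e-05).

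Of 9 tested relatives, processing and clearance genes, 3 rose with doxorubicin in each of the 4 transfections and none fell. With the control mimic that is near the share of all genes that passed (27.5%), which was 14.6% to 18.1% in the others. Pam, which amidates peptides and lines atrial granules, rose in each, by 1.06 ± 0.24 with miR-222 (adjusted p = 0.00506), 0.91 ± 0.24 with miR-455 (adjusted p = 0.0125), 1.32 ± 0.24 with both mimics (adjusted p = 0.00104) and 1.31 ± 0.24 with the control mimic (adjusted p = 0.000495). Pcsk6, a proprotein convertase that activates corin, rose by 2.33 ± 0.46 with the control mimic (adjusted p = 0.000914). The C-type peptide gene Nppc had 35, 24 and 27 counts in treated control cells, against 0 in each untreated control library. Over the groups that was at least 28.2-fold higher, taking 3 counts as the limit for the untreated group (adjusted p = 0.00269 in edgeR). Summed over its 3 libraries Nppc reached 15 counts with miR-222, 48 counts with miR-455 and 39 counts under the combined mimics in treated cells, and 3, 5 and 5 counts in untreated cells. The neprilysin gene Mme, whose product degrades natriuretic peptides, was lower with miR-222 on average, at -0.87 ± 0.25 (adjusted p = 0.0225). This fall was not particular to miR-222. Against the untreated control Mme was -2.72 ± 0.53 with miR-222 (adjusted p = 0.00473), -1.85 ± 0.52 with miR-455 (adjusted p = 0.0457) and -2.23 ± 0.52 with both mimics (adjusted p = 0.015). Under doxorubicin it passed against the control with none of them.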

How the data were processed

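Polyadenylated RNA of 24 cultures was extracted with Trizol, and a service company made the libraries, per the labels' protocols. The authors deposited one table of estimated counts per gene symbol, with Salmon, DESeq2 and the rat build Rnor_6.0 named in the submitters' processing notes without versions. Estimated counts are shared out among similar transcripts, so 7.35% of the deposited values were not whole, and they were rounded here. Genes were filtered with filterByExpr by group, scaled by TMM and tested with edgeR 4.0.16 (R 4.3.3) quasi-likelihood, as 8 group means over all 24 libraries. Each of 24 contrasts was adjusted by Benjamini-Hochberg over 14303 genes and called at 0.05. SE is the log2 fold change over the root of F. DESeq2 1.42.0 was an alternative. The test was checked on simulated data. The Nppa to Nppb ratio, with 0.5 added to each count, was compared by exact permutation of libraries between the groups compared, within each drug and transfection background. The 7 members and all lists were chosen with earlier results of these data known. Their counts beside the share of all genes are therefore descriptions and not tests of a set. Named genes were the 7 members, up to 4 called genes of smallest p per list and comparison, and the 5 genes most correlated with each peptide gene. Dkk3, Kcna5 and the hypoxia-gene term were singled out after values were seen. Sequences and loci are RefSeq, GRCr8. SE and SD cover only the spread between libraries. The share of all genes with separate libraries is given only for doxorubicin against none and for miR-222 against miR-455. Other statements that libraries lay apart are descriptions without that share. No column of the table belonged to another series.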

Additional observations from a re-analysis of the deposited data

How the results depend on the processing

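Over the alternatives, the rise of Nppa with doxorubicin in control cells, the average fall of Nppa and Nppb with miR-222 and their difference between miR-222 and miR-455 kept their direction and call. The average rises with miR-455 and several single comparisons did not, and the cause was not tested. All values are log2 fold changes with edgeR adjusted p unless DESeq2 is named. A filter of 1 CPM in 3 libraries gave Nppa 1.42 for doxorubicin with both mimics, a call gained. DESeq2 size factors gave 1.4 for Nppb with miR-455 against control under doxorubicin and 0.8 for the average of Nppa with miR-455, and no filter gave 0.81 for the second, all of them calls lost. The DESeq2 test gained calls for Nppa at 1.42 for doxorubicin with both mimics, -1.43 for both mimics against control under doxorubicin and -1.7 for miR-222 against miR-455 under doxorubicin. With the closest pairs counted as 1 library, 2 uncalled values turned sign, Nppb with doxorubicin and the control mimic (-0.03) and Nppa with untreated miR-222 (-0.1). Calls were lost there for Nppb with doxorubicin and both mimics (1.49, adjusted p = 0.0628). Against the untreated control they were lost for Nppb with miR-222 (-1.66, adjusted p = 0.0833), Nppa with miR-455 (2.49, adjusted p = 0.104) and Nppb with both (-1.81, adjusted p = 0.0771). They were also lost for Nppb with miR-455 under doxorubicin (1.43, adjusted p = 0.0968), for the untreated difference between miR-222 and miR-455 (Nppa -2.59, adjusted p = 0.148, Nppb -2.47, adjusted p = 0.0764), for the miR-455 averages (0.74 and 0.71), and for both mimics against miR-455 in Nppa with doxorubicin (-1.99, adjusted p = 0.0669) and in both genes without. With the mean of the hypoxia-induced genes as a term, chosen after seeing the data, Nppa gained calls for doxorubicin with miR-455 (1.61) and both mimics (1.86), and under doxorubicin for miR-222 (-1.22) and both mimics (-1.62) against control and miR-222 against miR-455 (-1.64). Without doxorubicin its uncalled values turned to -0.6 with miR-222 and -0.47 with both mimics, and the call of the miR-455 average was lost (0.49). With only the groups compared, calls were gained for Nppb with doxorubicin and miR-455 (0.64, adjusted p = 0.0404) and Nppa between miR-222 and miR-455 under doxorubicin (-1.68, adjusted p = 0.000301). They were lost for Nppb with doxorubicin and both mimics (1.46, adjusted p = 0.0722) and with miR-455 under doxorubicin (1.43, adjusted p = 0.0833). Untreated calls were lost for Nppb with miR-222 (-1.6, adjusted p = 0.0903), Nppa with miR-455 (2.68, adjusted p = 0.135), Nppb with both (-1.77, adjusted p = 0.224), Nppa between miR-222 and miR-455 (-2.58, adjusted p = 0.0512) and both genes for both mimics against miR-455. Without mitochondrially encoded genes uncalled Nppb with doxorubicin turned to -0.02 and Nppa between the mimics under doxorubicin gained a call (-1.71). Without the 4 libraries with the fewest genes, calls were gained for Nppa with doxorubicin and miR-455 (1.03) or both mimics (1.17), and under doxorubicin for Nppb with miR-222 (-1.23) and Nppa between the mimics (-1.71). They were lost for Nppb with miR-455 under doxorubicin (1.25) and Corin with doxorubicin in control cells (1.37, edgeR adjusted p = 0.053). Uncalled values turned sign for Nppb with doxorubicin and the control mimic (-0.2), Nppa with untreated miR-222 (-0.04) and the ratio difference for miR-455 (0.27). Among the other members, fitting the groups compared alone ended the doxorubicin calls of Corin (2.01), Npr1 (1.12) and Npr2 (0.86) with the control mimic and of Npr1 with both mimics (1.17), and that of Npr2 with miR-222 without the drug (1.09). Counting the closest pairs once ended those of Npr2 with doxorubicin (0.81), Npr1 with both mimics (1.21), Npr2 with untreated miR-222 (1.03), the miR-222 averages of Furin (0.72) and Npr2 (0.54) and the difference of Furin between the mimics (1.02).

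Same-numbered libraries of different groups were not paired, since the labels do not say what a replicate number marks. Correlations of their deviations ran from -0.581 to 0.453, and 16 of 84 were over 0.1. This count has no reference value, so it does not show that pairing is absent. The replicate block took Nppb with miR-455 under doxorubicin to 1.46 and the miR-455 average of Nppa to 0.80, neither called, and Nppa with both mimics against miR-455 to -2.05 with doxorubicin and -2.37 without, also not called.

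Leaving out 1 library at a time gave these ranges. For doxorubicin Nppb ran from -0.37 to 0.78 with the control mimic and Nppa from 1.62 to 2.17 with miR-222 and 0.97 to 1.78 with both. Under doxorubicin Nppa ran from -1.7 to -1.19 with both mimics and -1.83 to -1.55 between miR-222 and miR-455, and Nppb from -1.31 to -0.72 with miR-222, 1.27 to 1.77 with miR-455 and -0.5 to 0.0 with both. Without it Nppa ran from -0.13 to 0.42 with miR-222, 2.47 to 3.03 with miR-455, -0.06 to 0.75 with both and -0.15 to 0.67 for both against miR-222. Nppb ran from -1.95 to -0.81 with miR-222, 0.42 to 1.57 with miR-455 and -2.13 to -0.98 with both. The miR-455 averages ran from 0.71 to 0.91 for Nppa and 0.6 to 0.89 for Nppb. The change in the doxorubicin effect on Nppb ran from -0.22 to 0.92 with miR-222 and -0.14 to 1.0 with miR-455, and the ratio difference for miR-455 from -0.15 to 0.12.

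Over the alternatives other than single libraries, counts of called genes ran as follows, each beside the count as reported. For doxorubicin they ran from 967 to 4906 with miR-222 (2093), 1265 to 5545 with miR-455 (2593), 5 to 4757 with both mimics (2158) and 1437 to 5483 with the control mimic (3936). Against the control under doxorubicin they ran from 76 to 1211 with miR-222 (565), 144 to 727 with miR-455 (358) and 2 to 1873 with both (794), and without it from 186 to 2832 (1283), 2 to 1994 (675) and 0 to 3714 (1010). For miR-222 against miR-455 they ran from 357 to 3416 with doxorubicin (511) and 19 to 1584 without (329), and for both against miR-455 from 94 to 1002 (355) and 0 to 514 (107). The averages ran from 1291 to 4300 for miR-222 (2205), 291 to 1970 for miR-455 (758) and 525 to 3672 for their difference (1186). The changes in the doxorubicin effect ran from 0 to 205 with miR-222 (7), 0 to 135 with miR-455 (0) and 0 to 1589 with both (8), and the tests beyond the sum from 0 to 189 with doxorubicin (6) and 0 to 249 without (2). For both against miR-222 they ran from 0 to 148 with doxorubicin (23) and 0 to 24 without (0). Npr3, Npr1 and Corin had as few as 29, 92 and 46 counts in a library, which limits their precision.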
